A study of Homo sapiens with 9 samples.

Results

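The classical zinc-dependent histone deacetylases HDAC1 to HDAC10 were followed in HEK293 cells, a human embryonic kidney cell line, in which the histone acetyltransferase MOF (gene KAT8) had been raised or lowered. Members were all probe sets of the array whose platform annotation gave a single symbol from HDAC1 to HDAC10. There were 24 such probe sets of 54675, for all 10 genes, and 18 of the 24 reached the median signal of the array and were tested, at least 1 for each gene. Total RNA was hybridised to 9 arrays, 3 for each group. The wild type group was HEK293 cells that had received no treatment, the overexpression group had received plasmids encoding human MOF, and the knockdown group had received siRNA against MOF. The medium was the same for all groups, Dulbecco's MEM with serum and antibiotics. A group of cells transfected with an empty plasmid or a control siRNA was not analysed here, so in both comparisons with wild type the change of MOF and the transfection cannot be told apart. The labels number 3 replicates per group and do not say what was replicated (cultures, RNA or arrays), so p-values reflect only how far these arrays vary, and that variation could be technical.

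Histone deacetylases remove acetyl groups from lysines, the reverse of what MOF does to lysine 16 of histone H4. Class I (HDAC1, HDAC2, HDAC3 and HDAC8) is mostly nuclear: HDAC1 and HDAC2 are the catalytic subunits of the SIN3, NuRD, CoREST and MiDAC complexes, HDAC3 is that of the NCOR corepressor complex, and HDAC8 works outside such complexes and is known for deacetylating the cohesin subunit SMC3. Class IIa (HDAC4, HDAC5, HDAC7 and HDAC9) has little catalytic activity of its own, binds MEF2 transcription factors and shuttles between nucleus and cytoplasm when kinases phosphorylate it. Class IIb holds HDAC6, a cytoplasmic tubulin deacetylase, and HDAC10, a polyamine deacetylase. The arrays measure the RNA of these genes, not their proteins or activity.

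The labels were checked on KAT8 itself. Probe set 221820_s_at gave signals of 2909.5, 3796.8 and 3248.7 in wild type, 4594.3, 4727.2 and 4763.0 with overexpression and 432.0, 705.8 and 517.1 with knockdown. The knockdown arrays lay far below all others, at a mean of 16.6% of wild type, and the overexpression arrays lay above all wild type arrays. The knockdown difference passed the test (log2 fold change -2.61), whereas the rise with the plasmid did not (0.51, adjusted p = 0.259 by limma). The dimmer KAT8 probe set 214885_at gave 428.3, 498.9 and 400.7 in wild type, 656.6, 428.3 and 380.8 with overexpression and 159.5, 119.0 and 165.6 with knockdown. Its knockdown arrays were again below all others (-1.58, adjusted p = 0.00296 by limma), but wild type and overexpression overlapped (0.11, adjusted p = 0.91). Without a replicate term, the RNA measured here gave the knockdown label a clear check and the overexpression label none that passed. The rise on 221820_s_at passed with the replicate number as a block (adjusted p = 0.0381 by limma) and with a term for the replicate 1 arrays (0.0478). It did not pass over replicates 2 and 3 alone (0.218), and 214885_at did not pass with the block (0.861). For overexpression against wild type the replicate numbers were not taken to pair the arrays. In that comparison the calls over all probe sets rose from 130 to 1022 with the block and to 1109 with the term for the replicate 1 arrays. HEK293 markers were present, with 9 of 9 above the median of the array (neurofilament genes NEFM and NEFL, for example). Of 14 markers of blood, fibroblast, endothelial and liver cells, 4 were above it: HBB of blood, COL1A1 (79.8th percentile) and COL3A1 of fibroblasts, and PECAM1 of endothelium. The other 10 were below it: PTPRC, CD3E and CD14 of blood, COL1A2, DCN and LUM of fibroblasts, CDH5 and VWF of endothelium, and ALB and APOA1 of liver. The summed signal of all 14 ran from 3491.6 to 4429.6 in wild type and from 3625.6 to 4581.4 with overexpression. With knockdown that sum ran from 2608.1 to 3132.8, and its part in the results was not tested. The replicate 1 arrays, 1 of each group, stood apart, with spiked-in poly-A controls 2.22-fold dimmer than on the 6 arrays of replicates 2 and 3.

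The sequences before the start sites are shown for 3 class I genes that the results turn on: HDAC8, which fell with knockdown, and the paralogs HDAC1 and HDAC2, whose knockdown signals differed from wild type with opposite signs. Each is the 250 bases upstream of the RefSeq start site in the build GRCh38.p14, 5′ to 3′ on the gene's strand, and capitals mark matches to the GC box (GGGCGG), the CCAAT box (CCAAT) or the TATA box (TATAAA) on either strand. HDAC8 lies at chrX:72572844-72573093 on the minus strand, HDAC1 at chr1:32291833-32292082 on the plus strand and HDAC2 at chr6:113971149-113971398 on the minus strand.
HDAC8: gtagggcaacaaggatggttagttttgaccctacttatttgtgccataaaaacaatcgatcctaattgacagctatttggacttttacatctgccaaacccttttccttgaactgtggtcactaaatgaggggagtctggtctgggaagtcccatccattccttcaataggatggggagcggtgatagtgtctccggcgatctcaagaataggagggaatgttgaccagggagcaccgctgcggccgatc
HDAC1: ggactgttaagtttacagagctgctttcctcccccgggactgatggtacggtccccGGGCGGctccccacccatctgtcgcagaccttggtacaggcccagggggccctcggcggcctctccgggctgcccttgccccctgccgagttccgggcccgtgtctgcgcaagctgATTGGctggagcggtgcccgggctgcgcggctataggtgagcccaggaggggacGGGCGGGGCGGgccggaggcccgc
HDAC2: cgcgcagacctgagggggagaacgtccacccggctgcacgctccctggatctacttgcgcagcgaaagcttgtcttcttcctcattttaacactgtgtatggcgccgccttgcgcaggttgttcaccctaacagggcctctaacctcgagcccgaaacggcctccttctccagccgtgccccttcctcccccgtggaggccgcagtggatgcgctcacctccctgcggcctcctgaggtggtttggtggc
The HDAC8 stretch had the lowest GC content of the 3, at 48.0% with 7 CpG dinucleotides, and held none of the 3 motifs. That of HDAC1 had 71.6% GC and 21 CpG, with 3 GC boxes, the last pair overlapping, and 1 CCAAT box on the opposite strand. That of HDAC2 had 63.2% GC and 18 CpG and none of the motifs. The median over 35116 RefSeq promoters of this length was 58.0% GC and 11 CpG. Start sites of 9 of the 10 genes were matched, 19 in all. The GC box was in 8 of the 19 against 42.6% of all promoters, the CCAAT box in 7 against 32.0%, and the TATA box in 0 against 10.7%. A pair of the HDAC6 stretches and a pair of the HDAC9 stretches overlap, so some boxes are counted in both stretches of a pair. A match describes letters and is no evidence of a bound factor.

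HDAC8 was lower with knockdown, at 63.5% of the wild type mean and 65.3% of the overexpression mean on probe set 223345_at, and 2 of its 3 probe sets passed the test against both other groups, and no other tested deacetylase passed in a comparison with wild type. HDAC5 passed as lower between knockdown and overexpression. With overexpression, 0 of the 18 tested probe sets passed (limma, Benjamini-Hochberg adjusted p under 0.05), against 0.476% of all 27307 probe sets tested, and 2 (HDAC5 202455_at and HDAC6 206846_s_at) had an unadjusted p under 0.05, against 12.3% of all. Between knockdown and wild type 2 of the 18 passed, both lower (11.1%), where 15.7% of all probe sets passed and 8.89% passed as lower. Between knockdown and overexpression 3 of the 18 passed, all lower (16.7%), where 14.5% of all passed and 8.76% passed as lower. The share of deacetylase probe sets past the threshold was thus near that of all probe sets, and being called did not set them apart.

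The median log2 fold change of the 18 was -0.02 with overexpression, -0.19 between knockdown and wild type and -0.26 between knockdown and overexpression, against 0.01, 0.01 and -0.01 over all probe sets tested. The signs were split 9 to 9 with overexpression, where 47.6% of all probe sets tested were negative. They were negative for 13 of 18 in each comparison of the knockdown. Over all probe sets 49.0% were negative in that with wild type and 51.6% in that with overexpression. Several of the 18 read the same gene, so the sign count is a description. The comparisons share samples, so their values stand side by side and are no evidence for each other. Groups did not overlap for 2 of 18 with overexpression, both higher (11.1% against 17.6% of all probe sets in either direction and 9.92% as higher), for 6 of 18 between knockdown and wild type, all lower (33.3% against 35.2%, and 18.3% as lower), and for 5 of 18 between the treated groups, all lower (27.8% against 33.7%, and 18.7% as lower). Same-numbered arrays of the knockdown group and of each other group deviated together, and with the replicate number as a block 4 of 18 passed between knockdown and wild type, all lower (22.2% against 28.0% of all probe sets, and 15.0% as lower). With the block 7 of 18 passed between knockdown and overexpression, 5 lower and 2 higher (38.9% against 26.9%, of which 14.7% lower and 12.1% higher).

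**Figure D1:**
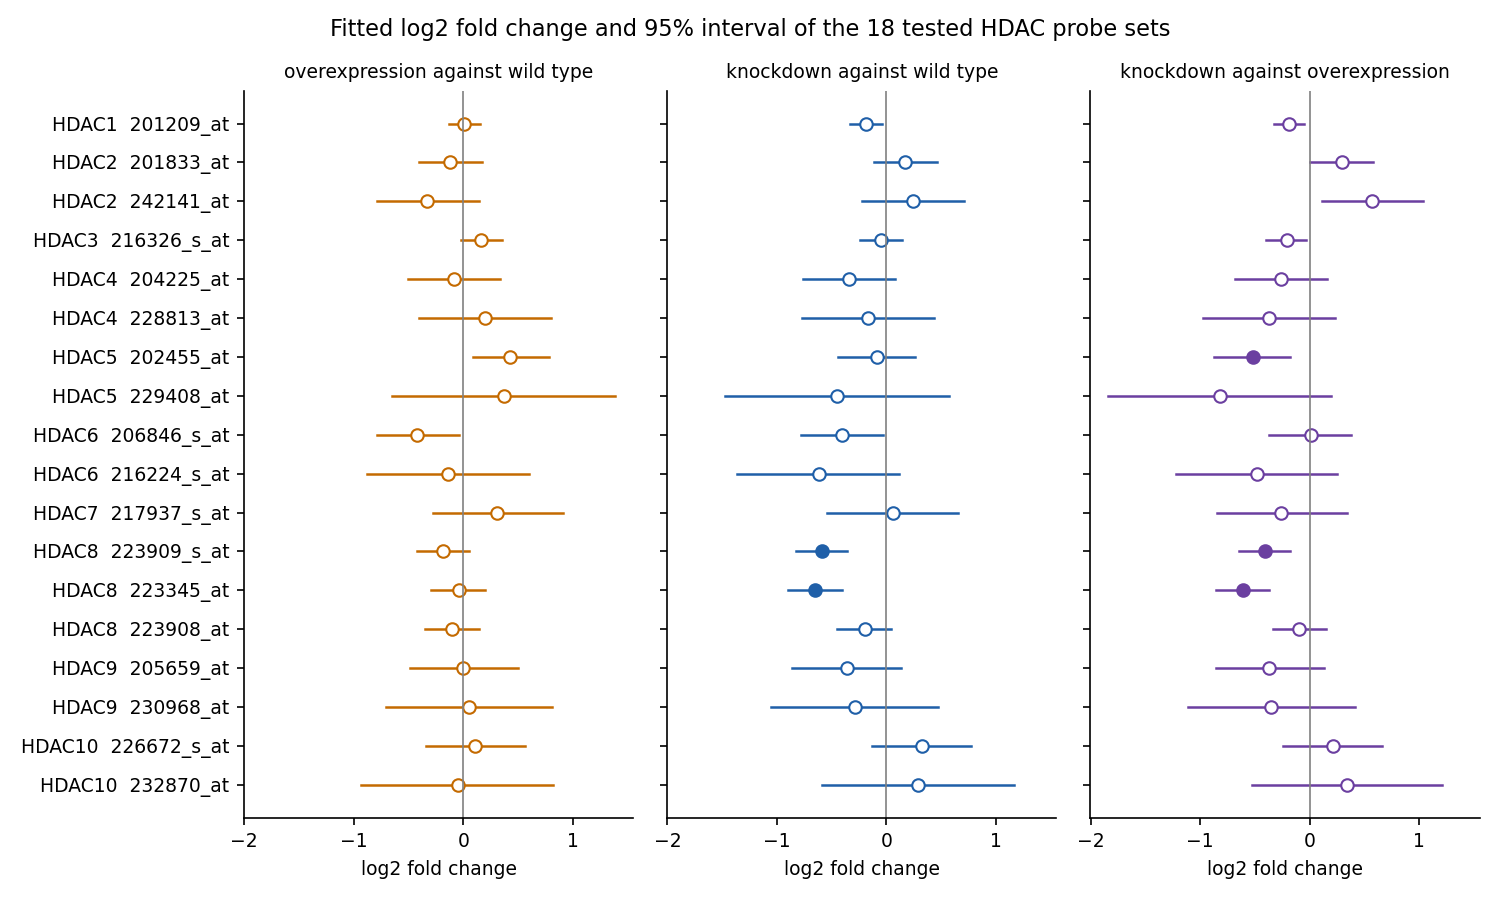
Log2 fold change (points) with its 95% interval (bars) from the limma fit for each of the 18 tested HDAC probe sets, in the 3 comparisons; filled points passed an adjusted p of 0.05. HDAC8 223909_s_at and 223345_at lie to the left of 0 in both panels of the knockdown, at -0.59 and -0.65 against wild type, while no point is filled in the panel of overexpression.

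Among the class I genes, HDAC8 had the largest difference between knockdown and wild type. Its brightest probe set, 223909_s_at, read 3600.5, 3321.8 and 3559.5 in wild type, 2948.2, 3331.7 and 2965.3 with overexpression and 2499.3, 2386.3 and 2075.3 with knockdown. All knockdown arrays lay below all arrays of the other groups, which overlapped each other. The knockdown mean, 2320.3 ± 220 (SD, n = 3), was 66.4% of the wild type mean of 3493.9 ± 150 (SD, n = 3), a log2 fold change of -0.59 (SE 0.11, 95% interval -0.83 to -0.36, adjusted p = 0.00465 by limma). The call held when any 1 of the 6 arrays was left out, with a highest adjusted p of 0.0231.

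Probe set 223345_at gave 2747.8, 2960.9 and 3186.3 in wild type, 2592.9, 3165.9 and 2889.5 with overexpression and 1763.7, 1942.2 and 1939.5 with knockdown. Again the knockdown arrays stood below all the others and the wild type and overexpression arrays were intermixed. The mean fell from 2965.0 ± 219 to 1881.8 ± 102 (SD, n = 3 each), to 63.5% of wild type (log2 fold change -0.65, SE 0.11, 95% interval -0.90 to -0.41, adjusted p = 0.00369 by limma). The differences between same-numbered arrays were -0.64, -0.61 and -0.72, so replicate 1 did not stand apart here. Each fit that left out 1 array kept the call, up to an adjusted p of 0.0194.

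The third probe set of HDAC8, 223908_at, changed less. It read 1596.3, 1422.9 and 1555.8 in wild type, 1496.0, 1334.3 and 1426.8 with overexpression and 1313.0, 1311.3 and 1347.8 with knockdown. The knockdown arrays were below all wild type arrays, close together, and overlapped those of overexpression. The mean with knockdown was 86.8% of wild type and the difference did not pass (log2 fold change -0.20, SE 0.11, 95% interval -0.45 to 0.04, adjusted p = 0.25 by limma). Within each array, the log2 ratio of 223345_at to 223908_at was 0.78, 1.06 and 1.03 in wild type and 0.43, 0.57 and 0.52 with knockdown, lower on every knockdown array. That ratio differed by -0.45 (SE 0.10; two-sided exact permutation p = 0.1, the smallest that 3 against 3 arrays can give), and that of 223909_s_at to 223908_at by -0.39 (SE 0.09, exact permutation p = 0.1). The ratio of the first pair named, 223345_at to 223909_s_at, differed by -0.06 (SE 0.14, exact permutation p = 0.7). These 3 tests belong to the disagreement between probe sets of 1 gene, and none can pass 0.05 at this size. Whether the probe sets read different transcripts of HDAC8 was not tested.

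Overexpression left HDAC8 without a call: the log2 fold changes were -0.18 (95% interval -0.42 to 0.05) for 223909_s_at, -0.04 (-0.29 to 0.20) for 223345_at and a small negative value for 223908_at, with adjusted p-values by limma of 0.529 and 0.919 for the first 2. Between knockdown and overexpression, 223345_at was 1.53-fold lower (log2 fold change -0.61, adjusted p = 0.00535 by limma) and kept its call whichever array was left out, up to 0.0263. For 223909_s_at the log2 fold change was -0.41 (SE 0.11, adjusted p = 0.0259). That call was lost without overexpression replicate 2 (adjusted p = 0.0791), overexpression replicate 3 (0.0655), knockdown replicate 2 (0.0637) or knockdown replicate 3 (0.0997), and in a fit of only the 6 arrays compared (0.0531). In these bulk samples, fewer cells that express a gene and less RNA per cell cannot be told apart.

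**Figure D2:**
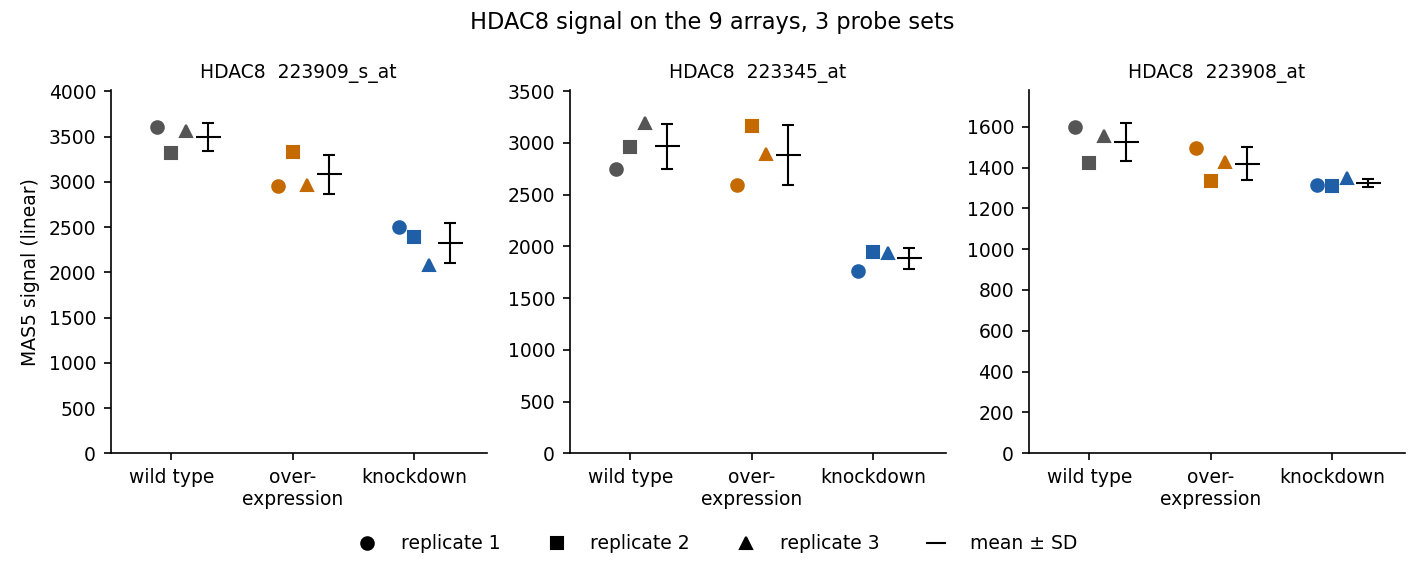
MAS5 signal (linear scale, from 0) of the 3 HDAC8 probe sets on each array by group; symbols give the replicate number and bars the mean with its SD over 3 arrays. For 223909_s_at and 223345_at the knockdown arrays, at 1763.7 to 2499.3, lie under all the others of the same probe set, while for 223908_at they lie just under wild type at 1311.3 to 1347.8.

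HDAC1, the class I enzyme shared by most corepressor complexes, had a small difference that missed the test. Probe set 201209_at read 42361.8, 43794.8 and 47546.7 in wild type, 44834.2, 45674.8 and 43778.5 with overexpression and 38783.5, 37828.0 and 40916.1 with knockdown. Every knockdown array was below every other array. The knockdown mean was 87.9% of wild type (log2 fold change -0.19, SE 0.06, 95% interval -0.33 to -0.04, adjusted p = 0.0745 by limma), and the difference from overexpression was also -0.19 (adjusted p = 0.0694). With the replicate block both passed (0.0343 and 0.0294), and with quantile normalization they passed as well (0.0407 and 0.0115). Neither passed without the filter (0.206 and 0.194), over the 6 arrays compared (0.113 and 0.0794) or over replicates 2 and 3 alone (0.0641 and 0.108). Nor did either pass when any 1 array was left out, up to 0.222 and 0.214. With overexpression the difference from wild type was 0.01 (adjusted p = 0.976), with an interval from 0.912-fold to 1.11-fold.

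HDAC2, the paralog that pairs with HDAC1 in the same complexes, leaned the other way. Probe set 201833_at read 21927.5, 27112.4 and 29608.9 in wild type, 20365.3, 27354.6 and 24715.3 with overexpression and 26269.3, 30914.8 and 30974.4 with knockdown. The groups overlapped, and the replicate 1 array was the lowest of each group. The log2 fold change was 0.17 between knockdown and wild type (adjusted p = 0.407 by limma), -0.12 with overexpression (0.771) and 0.29 between knockdown and overexpression (SE 0.13, 95% interval 0.00 to 0.58, 0.165). With the replicate block the SE of the last fell to 0.06 and it passed (adjusted p = 0.00582), as it did over replicates 2 and 3 alone (log2 fold change 0.25, adjusted p = 0.0448).

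The dimmer HDAC2 probe set 242141_at read 966.9, 1189.0 and 965.9 in wild type, 1013.7, 610.3 and 912.2 with overexpression and 1425.2, 1327.0 and 977.3 with knockdown. Its knockdown arrays were mostly the highest, and all groups overlapped. Between knockdown and overexpression its log2 fold change was 0.57 (SE 0.21, adjusted p = 0.0961 by limma; 0.0486 with the replicate block). Against wild type the knockdown differed by 0.24 (adjusted p = 0.472) and overexpression by -0.33 (0.577). Both HDAC2 probe sets had the same signs in all 3 comparisons. Neither passed in the fit of all 9 arrays without a replicate term, and both passed between knockdown and overexpression with a term for the replicate 1 arrays (adjusted p = 0.00399 for 201833_at and 0.0412 for 242141_at by limma).

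HDAC3, the catalytic subunit of the NCOR complex, had 1 probe set, 216326_s_at, with signals of 4637.7, 4830.7 and 4886.9 in wild type, 5397.1, 5370.4 and 5323.1 with overexpression and 5008.1, 4425.6 and 4452.3 with knockdown. The overexpression arrays lay together above all the others. Their mean of 5363.5 ± 37.5 (SD, n = 3) was 1.12-fold that of wild type, which did not pass (log2 fold change 0.16, 95% interval -0.02 to 0.35, adjusted p = 0.473 by limma). The knockdown differed by -0.05 from wild type (adjusted p = 0.736) and by -0.21 from overexpression (SE 0.09, 0.117; 0.049 with the block). Over class I as a whole, 7 of 7 probe sets were tested. With knockdown 2 passed as lower against each of the other groups, both of them probe sets of HDAC8. Of all probe sets tested, 8.89% passed as lower against wild type and 8.76% against overexpression. The median log2 fold change of the class I probe sets with knockdown was -0.19 in both comparisons.

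**Figure D3:**
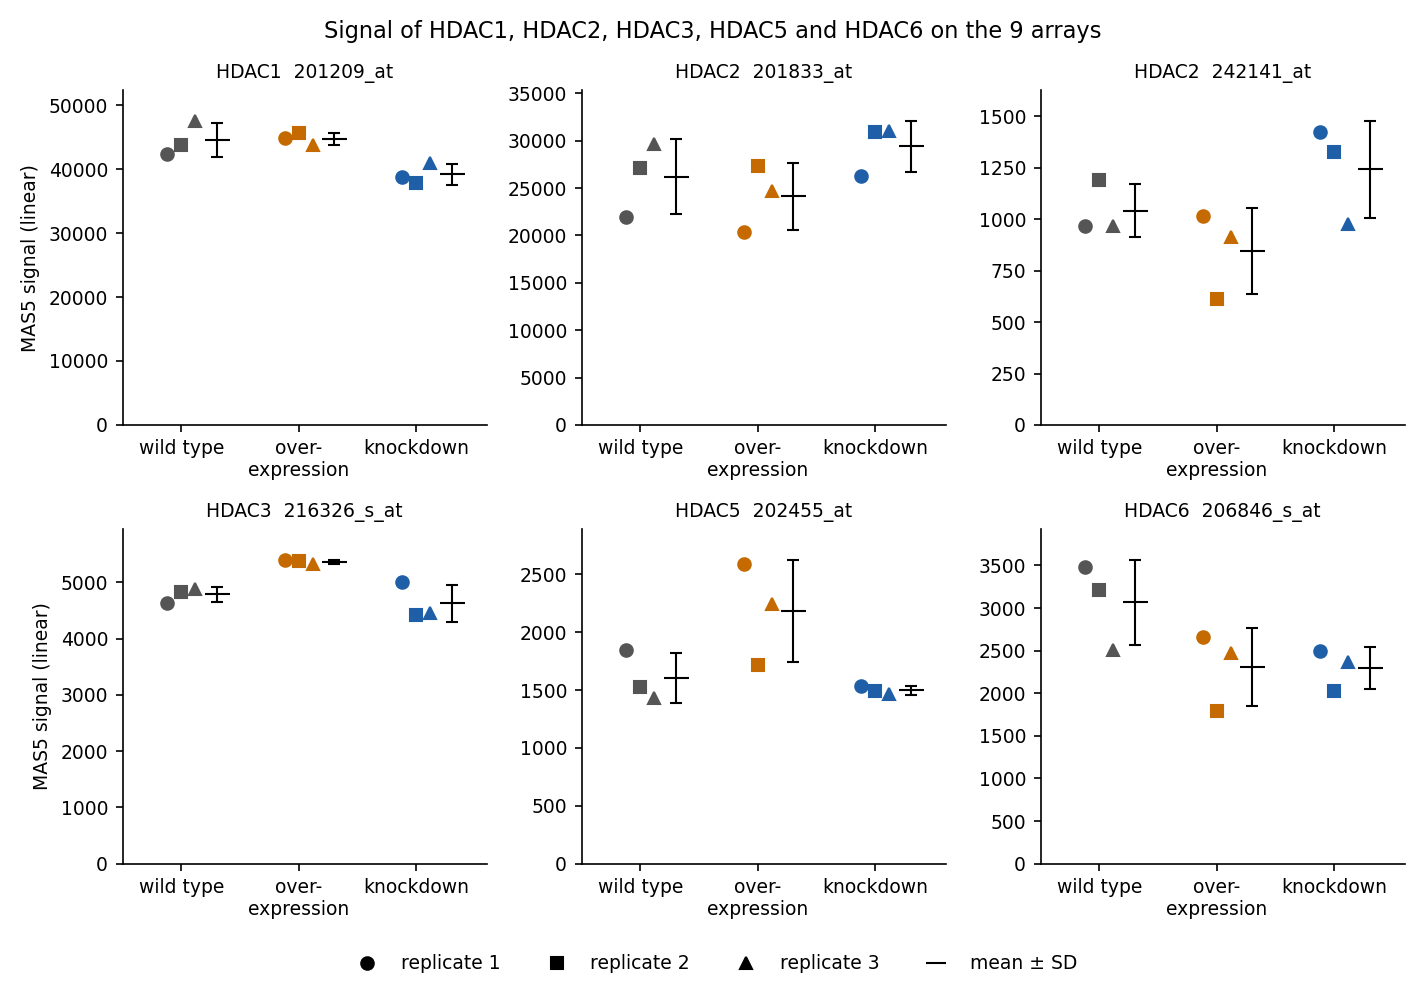
MAS5 signal (linear scale, from 0) of HDAC1, HDAC2, HDAC3, HDAC5 and HDAC6 probe sets on each array by group; symbols give the replicate number and bars the mean with its SD over 3 arrays. The HDAC1 knockdown arrays, 37828.0 to 40916.1, sit below all others, and the HDAC5 overexpression arrays, 1715.5 to 2593.6, spread widely above the 3 knockdown arrays.

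In class IIa, the kinase-controlled MEF2 repressors, 12 probe sets were present and 7 were tested. HDAC5 202455_at read 1846.1, 1530.8 and 1434.3 in wild type, 2593.6, 1715.5 and 2247.7 with overexpression and 1539.8, 1488.6 and 1467.4 with knockdown. The overexpression arrays were the highest but varied most, with their replicate 2 inside the range of wild type, and all of them lay above the knockdown arrays. Knockdown was 1.44-fold below overexpression and passed (log2 fold change -0.52, SE 0.16, 95% interval -0.87 to -0.18, adjusted p = 0.0475 by limma). Against wild type, overexpression was at 0.43 (95% interval 0.09 to 0.78, unadjusted p = 0.0186, adjusted p = 0.299) and knockdown at -0.09 (adjusted p = 0.745). The call was kept without overexpression replicate 2 (adjusted p = 0.0159 by limma) and lost without any other of the 6 arrays, reaching 0.14 without overexpression replicate 3. It was also lost over replicates 2 and 3 alone (0.0859), over the 6 arrays compared (0.0608), without the filter (0.0728) and without a trend in eBayes (0.0703). The call was kept with the replicate block (0.00786), with a term for the replicate 1 arrays (0.00655) and, narrowly, with quantile normalization (0.0474).

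The second HDAC5 probe set, 229408_at, was near the limit of the filter. It read 232.2, 157.8 and 223.4 in wild type, 248.4, 296.3 and 242.1 with overexpression and 63.0, 284.7 and 176.8 with knockdown. Its overexpression arrays were above all wild type arrays, while the knockdown arrays scattered across both, with an SD of 63.4% of their mean. The log2 fold changes were 0.37 with overexpression, -0.45 between knockdown and wild type and -0.82 between knockdown and overexpression (SE 0.46), with adjusted p-values by limma of 0.8, 0.555 and 0.268. Both HDAC5 probe sets had the same signs, and the 95% interval of the last difference ran from 0.279-fold to 1.14-fold for the dimmer one.

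HDAC4, a partner of MEF2 and of the NCOR complex, had 204225_at at 978.9, 1281.4 and 891.6 in wild type, 911.6, 870.6 and 1191.8 with overexpression and 702.3, 981.0 and 803.8 with knockdown. The groups overlapped throughout, and no comparison passed (log2 fold changes -0.08, -0.34 and -0.26 for overexpression against wild type, knockdown against wild type and knockdown against overexpression; adjusted p = 0.91, 0.262 and 0.411 by limma). Its dimmer probe set 228813_at ran from 184.3 to 320.0 over the 9 arrays, at 0.20, -0.17 and -0.37 in the same order, none of which passed.

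HDAC7, known for its role in endothelial and thymic cells, had 1 tested probe set, 217937_s_at, at 490.2, 416.4 and 265.7 in wild type, 488.2, 488.4 and 436.3 with overexpression and 486.0, 440.4 and 285.1 with knockdown. Replicate 3 was the lowest in every group, and the groups overlapped. Log2 fold changes of 0.31, 0.06 and -0.26, in the same order of comparisons, did not pass (adjusted p = 0.694, 0.914 and 0.575 by limma).

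HDAC9, known from muscle, had 205659_at at 338.5, 288.2 and 316.9 in wild type, 332.6, 282.4 and 331.1 with overexpression and 249.9, 291.5 and 199.2 with knockdown. The lowest arrays were those of knockdown, although its replicate 2 fell among the others. The log2 fold changes were 0.00, -0.36 and -0.37 in the same order (SE 0.23, adjusted p = 0.998, 0.308 and 0.316 by limma). The other tested probe set, 230968_at, ran from 119.2 to 267.8, with 0.05, -0.29 and -0.35 and no call. It was the tested member closest to the filter, with a mean log2 signal of 7.60 where the limit was 7.564, and the member just outside was HDAC4 1554322_a_at at 7.43.

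Over class IIa, the knockdown was below overexpression in 7 of 7 tested probe sets, by log2 fold changes from -0.82 to -0.26 with a median of -0.37. Of the 7, 1 passed, where 8.76% of all probe sets tested passed as lower. The value of -0.82 was that of the dim HDAC5 229408_at (SE 0.46). The 5 class IIa probe sets below the filter went both ways in the fit without it, from -1.69 (HDAC7 236326_at) to 1.13 (HDAC4 1554322_a_at), and none passed. The median was 0.20 with overexpression, with 6 of 7 positive and 0 past the threshold by limma (1 with an unadjusted p under 0.05), and -0.29 between knockdown and wild type, with 6 of 7 negative and 0 past it (0 also unadjusted). Over all probe sets tested 47.6% were negative with overexpression, 49.0% between knockdown and wild type and 51.6% between knockdown and overexpression. The sign count is a description, since several of these probe sets read the same genes on the same arrays.

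In class IIb, 4 of 5 probe sets were tested and 0 passed by limma (1 with an unadjusted p under 0.05 in each comparison with wild type). HDAC6 206846_s_at read 3482.0, 3209.3 and 2508.4 in wild type, 2662.4, 1791.5 and 2476.3 with overexpression and 2499.4, 2026.4 and 2366.1 with knockdown. Each knockdown array was under the lowest wild type array, though only narrowly under wild type replicate 3, and both treated groups had nearly the same mean: 2310.1 ± 459 with overexpression and 2297.3 ± 244 with knockdown, against 3066.6 ± 502 in wild type (SD, n = 3 each). The log2 fold change was -0.42 with overexpression (95% interval -0.79 to -0.04, adjusted p = 0.353 by limma) and -0.41 between knockdown and wild type (SE 0.17, 95% interval -0.78 to -0.03, 0.131). With the block the latter passed (SE 0.13, adjusted p = 0.0337). Knockdown and overexpression differed by 0.01 (adjusted p = 0.985), with an interval from 0.775-fold to 1.30-fold.

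The second tested HDAC6 probe set, 216224_s_at, read 462.2, 509.9 and 613.6 in wild type, 808.0, 381.7 and 349.5 with overexpression and 230.3, 383.6 and 445.5 with knockdown. The knockdown arrays were below all wild type arrays, and overexpression replicate 1 was the highest of all while the other two were low. Its differences of -0.14, -0.62 and -0.48 (log2, overexpression against wild type, knockdown against wild type and knockdown against overexpression) did not pass (adjusted p = 0.91, 0.237 and 0.375 by limma).

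HDAC10 226672_s_at read 374.3, 328.3 and 393.7 in wild type, 372.1, 362.9 and 451.5 with overexpression and 384.3, 556.0 and 443.1 with knockdown. The groups overlapped, with the highest array in the knockdown group. Log2 fold changes of 0.11, 0.32 and 0.21 (SE 0.21) did not pass (adjusted p = 0.875, 0.318 and 0.539 by limma). Its other probe set, 232870_at, ran from 140.9 to 369.7 and gave -0.05, 0.29 and 0.34 (SE 0.40), with no call.

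The 6 members below the filter were HDAC4 1554322_a_at, HDAC6 211722_s_at, HDAC7 236326_at and HDAC9 234393_at, 1552760_at and 1552758_at. Their signals ran from 3.1 to 312.3, and the SD within a group ran from 8.64% to 122% of the mean, against 0.699% to 63.4% (median 14.1%) for the tested members. In a fit without the filter none of the 6 passed, with adjusted p-values by limma from 0.279 to 0.933. HDAC4 1554322_a_at alone had groups that did not overlap: 312.3, 216.8 and 240.4 with knockdown against 159.6, 189.1 and 50.3 with overexpression (log2 fold change 1.13, SE 0.52, adjusted p = 0.279), opposite in sign to both tested HDAC4 probe sets. HDAC11, the class IV relative and no member of the group, had 227679_at at 665.0, 786.2 and 574.2 in wild type, 719.1, 642.8 and 705.9 with overexpression and 487.5, 548.9 and 527.0 with knockdown. Its knockdown arrays were below all the others, without a call (log2 fold change -0.36 against wild type, adjusted p = 0.161, and -0.40 against overexpression, 0.127, both by limma). Another HDAC11 probe set, 219847_at, was below the filter and was not tested. It read 293.2, 178.1 and 220.2 in wild type, 224.1, 197.1 and 61.5 with overexpression and 21.9, 174.1 and 22.6 with knockdown.

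The genes whose profile over the 9 arrays was most like that of HDAC8 223909_s_at were named by the root mean square difference of their log2 profiles, each centred on its own mean. The 5 closest of 12035 genes were METTL5 (0.036), a subunit of a ribosomal RNA methyltransferase, ANK3 (0.043), the membrane adaptor ankyrin-G, RASSF2 (0.055), a RAS association domain protein, NUP37 (0.068), a nuclear pore subunit, and COQ7 (0.068), an enzyme of ubiquinone synthesis. The median over all genes was 0.324, and HDAC8's own second probe set 223345_at lay at 0.146. Their log2 fold changes between knockdown and wild type ran from -0.67 (RASSF2) to -0.48 (COQ7), and those with overexpression from -0.22 (ANK3) to -0.05 (COQ7). METTL5, the closest, read 28806.3, 27951.3 and 28166.0 in wild type, 24648.5, 26163.1 and 24481.0 with overexpression and 20728.6, 20019.1 and 17160.1 with knockdown. Its knockdown arrays were the lowest and its wild type arrays the highest, with no overlap between groups. The likeness is a description over 9 arrays that share their groups.

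The genes that work with the deacetylases were called no more often than all genes in the comparisons of the knockdown, and their list medians were near 0 with members on both sides. Each gene was represented by its brightest tested probe set, and 58 genes in 5 lists were measured. With overexpression 0 of 58 passed (limma), where 0.631% of 12036 genes passed, and 3 of the 58 had an unadjusted p under 0.05. Between knockdown and wild type 1 passed as higher and 3 as lower (6.9%), where 19.4% of all genes passed, 6.7% as higher and 12.7% as lower. Between knockdown and overexpression 2 passed as higher and 6 as lower (13.8%), where 18.4% of all genes passed, 6.22% as higher and 12.1% as lower. With the replicate block 18 passed between knockdown and wild type, 10 higher and 8 lower (31.0% against 33.4% of all genes), and 17 between the treated groups, 8 higher and 9 lower (29.3% against 32.6%). By list, the calls with the block between knockdown and wild type were 3 higher and 3 lower for SIN3, 3 and 1 for NuRD, 2 and 2 for CoREST and MiDAC, 0 and 1 for the NCOR complex and 2 and 1 for the class IIa partners. The corresponding counts between knockdown and overexpression were 1 and 1, 1 and 2, 2 and 2, 0 and 1, and 4 and 3 in the same order. The CoREST and MiDAC list also held MIER1, MIER2 and MIER3, and MIER1 was 1 of its higher calls in both comparisons. The smallest p-values that passed only with the block belonged to MIER1, a corepressor that binds HDAC1 and HDAC2 (0.41 between knockdown and overexpression, adjusted p = 0.000726), and the SIN3 subunit SUDS3 (-0.51 between knockdown and wild type, 0.00182).

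TRERF1, a subunit of the MiDAC complex that holds HDAC1 and HDAC2, moved most. It read 629.8, 669.1 and 721.1 in wild type, 733.4, 983.2 and 819.0 with overexpression and 392.5, 414.0 and 424.5 with knockdown. The 3 groups did not overlap, in the order knockdown, wild type, overexpression. Knockdown was 1.64-fold below wild type (log2 fold change -0.71, SE 0.16, adjusted p = 0.0142 by limma; 0.0507 without wild type replicate 3) and 2.04-fold below overexpression (-1.03, SE 0.16, 0.00253, with a highest adjusted p of 0.0137 when 1 array was left out).

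Of the 12 tested genes on the CoREST and MiDAC list, TRERF1 was the 1 that passed between knockdown and wild type. DNTTIP1, the MiDAC scaffold, also passed between knockdown and overexpression (-0.33, SE 0.10, adjusted p = 0.0452 by limma), a call lost whichever of the 6 arrays was left out (0.0689 to 0.121). Of 14 SIN3 genes, SAP30, a SIN3 core subunit, passed as higher between knockdown and wild type (0.40, SE 0.12, 0.0444), with signals of 4806.8, 5656.0 and 5957.5 in wild type and 6188.3, 7927.4 and 7554.6 with knockdown, where the knockdown arrays were all above. That call was kept without knockdown replicate 1 (0.0215) and lost without any other array, up to 0.155 without knockdown replicate 2. The histone chaperone RBBP7 passed as lower between knockdown and overexpression (-0.26, SE 0.07, 0.0325) and kept its call without overexpression replicate 3 or knockdown replicate 1, losing it without the other 4 arrays, up to 0.128.

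Of 10 NuRD genes, 0 passed between knockdown and wild type by limma without the block, and 3 had an unadjusted p under 0.05. With the block 4 of the 10 passed in that comparison, where 33.4% of all 12036 genes passed. The 4 were MTA2 (log2 fold change 0.64, adjusted p = 0.0275 by limma), MBD3 (0.52, 0.0177) and GATAD2B (0.30, 0.0389) as higher and CDK2AP1 (-0.20, 0.0252) as lower. CDK2AP1, a small NuRD subunit, also passed without the block as lower between knockdown and overexpression (-0.25, SE 0.07, adjusted p = 0.0287 by limma), a call lost whichever array was left out (0.0511 to 0.0909). Of 4 tested NCOR complex genes, TBL1X, the WD repeat subunit that exchanges corepressors, passed as lower between knockdown and wild type (-0.46, SE 0.14, 0.0443). Its call was kept without wild type replicate 3 or knockdown replicate 1 and lost without the other 4, up to 0.147.

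Of 18 class IIa partners, CAMK1, a calmodulin-dependent kinase, passed as lower between knockdown and wild type (-0.39, SE 0.10, adjusted p = 0.0239 by limma), kept without wild type replicate 1 or knockdown replicate 3 and lost without the other 4 arrays, up to 0.0907. Between knockdown and overexpression, the kinase CAMK2D passed as higher (0.51, SE 0.10, 0.00638), at 4305.1, 3756.1 and 4300.6 with overexpression and 6168.1, 5510.7 and 5883.6 with knockdown, and kept its call whichever array was left out (up to 0.0267). SIK1, a kinase that phosphorylates class IIa deacetylases, was also higher (0.58, SE 0.14, 0.0195), while the transcription factor MEF2A (-0.44, SE 0.12, 0.0322) and the ankyrin-repeat partner RFXANK (-0.46, SE 0.14, 0.0495) were lower. SIK1 and MEF2A kept their calls without overexpression replicate 2 or knockdown replicate 1 and lost them without the other 4 arrays, up to 0.0768 and 0.104. RFXANK kept its call without overexpression replicate 2 alone, reaching 0.18 without overexpression replicate 3.

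The list medians stayed near that of all genes. Between knockdown and wild type they were -0.05 for SIN3, 0.07 for NuRD, 0.00 for CoREST and MiDAC, 0.11 for the NCOR complex and -0.02 for the class IIa partners, against -0.04 over all genes. Between knockdown and overexpression they lay between -0.06 and 0.05, against -0.05, and with overexpression between 0.01 and 0.09, against 0.00.

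**Figure D4:**
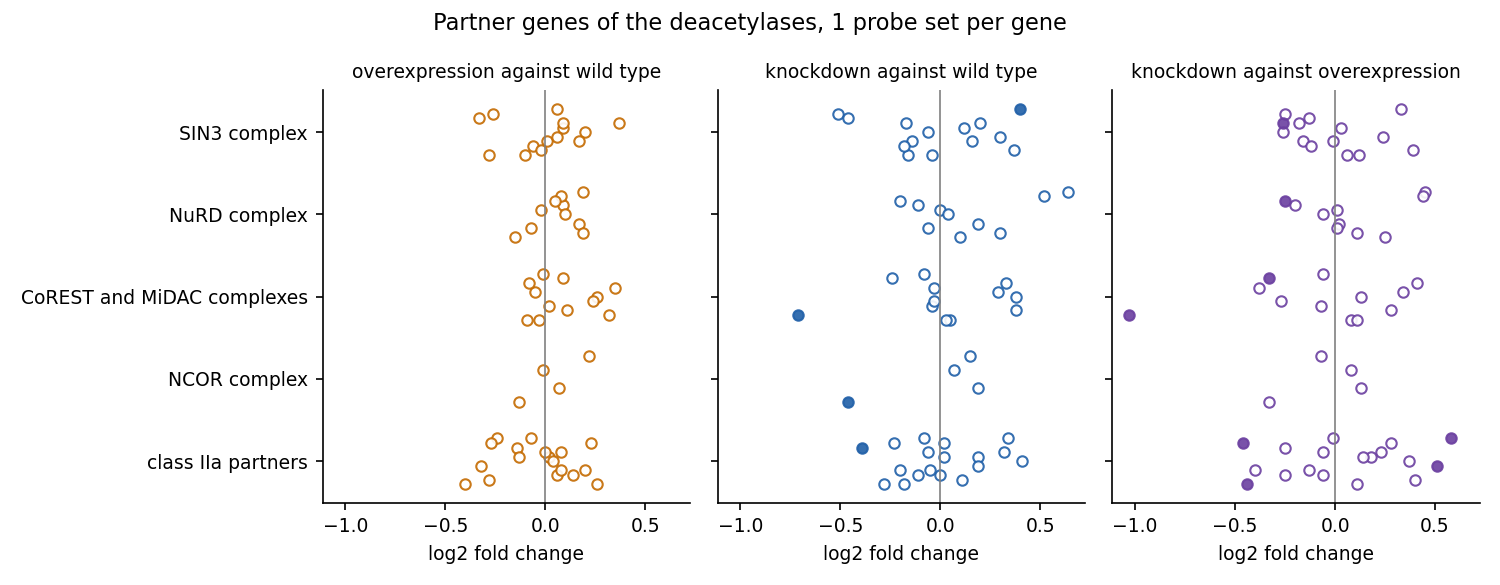
Log2 fold change of each tested partner gene (1 point per gene, 58 genes) by list in the 3 comparisons; filled points passed an adjusted p of 0.05. Points scatter around 0 in every list; TRERF1 stands alone at -0.71 and -1.03 in the panels of the knockdown, and no point is filled with overexpression.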

How the data were processed

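The authors deposited MAS5 signals, a linear intensity (signal) per probe set, per the submitters' processing notes; the method corrects for mismatch probes and scales each array, and the trimmed mean (2% at each end) was 1500.2 on all 9 arrays. Fold changes are on the scale log2(signal + 1), which understates those of dim probe sets. The 62 control probe sets and those with a mean log2 signal below the median (7.564) were left out, and 27307 were tested with limma 3.58.1 in R 4.3.3 (lmFit, eBayes with a trend) in 1 fit over the 9 arrays (6 residual degrees of freedom; two-sided tests; p-values adjusted after Benjamini-Hochberg) and a threshold of 0.05. The fit was tested on simulated data with independent noise and planted log2 changes of 1 up or down. Those data held no offset of the replicate 1 arrays and no smaller changes, so that test does not cover them. Within-array ratios were compared by exact permutation (scipy 1.17.1), and figures drawn with matplotlib 3.10.9. An array has no read depth, so the number of arrays limits the precision.

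Names came from the platform annotation: 41097 probe sets had 1 symbol, 1801 several and 11777 none, and 41043 matched RefSeq by Entrez ID. Probe sets ending in _s_at can match several transcripts. Members, partner lists (up to 3 genes of smallest p per list and comparison, widened to every called gene after their values were seen) and tests were chosen with earlier results of these data known.

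No arrays held identical values, and correlations within groups were 0.973 to 0.985. Deviations from the group means correlated at 0.137 to 0.362 between same-numbered knockdown and wild type arrays and at 0.106 to 0.352 between knockdown and overexpression, all over 0.1, so by that bound the numbers (from the labels) were taken to pair these samples. Beyond replicate 1 the same numbers did not always stand out: wild type replicate 3 correlated at 0.18 with knockdown replicate 2 and at 0.137 with knockdown replicate 3. The replicate 1 arrays were treated as a possible batch from their added controls, whose cause the labels do not give. Alternatives tried were quantile normalization, a pseudocount of 16, other filters, the replicate block, a term for the replicate 1 arrays, no trend, the 6 arrays compared alone, leaving out each array and, added after seeing the data, replicates 2 and 3 only.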

Additional observations from a re-analysis of the deposited data

How the results depend on the processing

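The number of probe sets past the threshold moved most with the replicate terms. For overexpression against wild type it was 130, with 1022 under the replicate block, 1109 with a term for the replicate 1 arrays, 70 without a trend, 27 over the 6 arrays alone, 220 over replicates 2 and 3 only and 25 to 97 with 1 array left out. Here the numbers were not taken to pair the samples (correlations of deviations from 0.083 to 0.447), and the block gave 0 HDAC calls, as did the main analysis. For knockdown against wild type it was 4289, with 7637 under the block, 7706 with the replicate 1 term and 2213 to 3653 with 1 array left out. For knockdown against overexpression it was 3963, with 7334, 7425 and 2040 to 3289. The HDAC probe sets past the threshold numbered 2 between knockdown and wild type (4 under the block and 4 with the replicate 1 term) and 3 between knockdown and overexpression (7 under the block, 7 with that term, 1 over the 6 arrays alone, and 1 to 2 with 1 array left out). The cause of these shifts was not tested.

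Of the single probe set results, 430 kept direction and side of the threshold in the settings that keep all 3 replicates or drop replicate 1, 15 passed only there, 5 were lost and 6 changed sign; with 1 array left out 289 kept both, 9 were lost and 26 changed sign. None of those that changed sign had passed. With overexpression the log2 fold change became -0.03 for HDAC1 and -0.17 for HDAC9 230968_at over replicates 2 and 3, and -0.08 for HDAC9 205659_at and -0.05 for HDAC9 230968_at with quantile normalization. Over replicates 2 and 3, HDAC5 229408_at was 0.26 between knockdown and wild type and HDAC6 216224_s_at 0.18 between knockdown and overexpression. With 1 array left out, values with overexpression ran from -0.03 to 0.06 for HDAC1, -0.22 to 0.07 for HDAC4 204225_at, -0.01 to 0.39 for HDAC4 228813_at, -0.52 to 0.08 for HDAC6 216224_s_at, -0.11 to 0.03 for HDAC8 223345_at, -0.06 to 0.08 for HDAC9 205659_at, -0.24 to 0.21 for HDAC9 230968_at and -0.33 to 0.37 for HDAC10 232870_at. Between knockdown and wild type they ran from -0.38 to 0.02 for HDAC4 228813_at, -0.17 to 0.02 for HDAC5 202455_at, -0.93 to 0.15 for HDAC5 229408_at and -0.20 to 0.29 for HDAC7 217937_s_at, and between knockdown and overexpression from -0.17 to 0.12 for HDAC6 206846_s_at. Probe sets near the filter, with signals around 188.3, have wide intervals, and no direction can be read from them here.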

Other observations

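The log2 ratio of HDAC1 201209_at to HDAC2 201833_at within each array was 0.95, 0.69 and 0.68 in wild type, 1.14, 0.74 and 0.82 with overexpression and 0.56, 0.29 and 0.40 with knockdown. The knockdown arrays were below all the others, by means of -0.36 (SE 0.12) against wild type and -0.48 (SE 0.14) against overexpression. The ratio was chosen after its values were seen, so it has no test, and since the probe sets differ only its change between arrays can be read, not its size.

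Antisense transcripts of 2 deacetylase genes had a probe set each, both below the filter. HDAC2-AS2 1559620_at ran from 13.9 to 113.3 and HDAC4-AS1 237764_at from 76.4 to 218.7 over the 9 arrays, with overlapping groups.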
